A study of Mus musculus with 103 samples.

Results

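The Hox genes encode homeodomain transcription factors that give cells of the embryo their position along the body axis and the limb. In mammals they lie in 4 clusters, HoxA, HoxB, HoxC and HoxD, and genes of the same paralogue number (1 to 13) in different clusters are the most alike in sequence. Low numbers are used from the head end of the embryo downward, high numbers toward the tail and the far end of the limb, and fibroblasts keep such a Hox pattern in culture. CTCF binds between genes inside these clusters and is known for separating active from Polycomb-repressed stretches of them. Cohesin, of which Smc3 is a core subunit, is held at CTCF sites, and Wapl releases it from chromatin.

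The members are all rows whose symbol is Hoxa, Hoxb, Hoxc or Hoxd with a number: 40 of the 23339 genes of the RNA-seq table, and the same 40 rows in each of the other 3 tables. Of these, 39 are protein-coding (11 HoxA, 10 HoxB, 9 HoxC and 9 HoxD) and 1 is Hoxa11as, an antisense transcript of Hoxa11. Hoxb1 and Hoxd1 never reached 1 RPKM in any library, so 38 of 40 rows entered the tests. RPKM is a read count scaled to gene length and library size.

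All cells were C57BL/6 mouse embryonic fibroblasts from E13.5 embryos (embryonic stage in days), held in quiescence. The groups with RNA-seq were wild-type cells (2 clones, untreated and with Adeno-Cre, an adenovirus that expresses Cre), Rosa26(CreER/+) cells without a floxed gene (2 clones, untreated and with 4-hydroxytamoxifen, which activates Cre-ER), Ctcf(fl/fl) cells (2 clones, untreated and Adeno-Cre), Rosa26(CreER/+) Smc3 floxed cells (4 clones, untreated and hydroxytamoxifen; clone 1 was fl/fl, clones 2 to 4 were fl/-), Rosa26(CreER/+) Wapl(fl/-) cells (2 clones, untreated and hydroxytamoxifen) and Ctcf(fl/fl) Wapl(fl/fl) cells (clones 3 and 4 untreated, clone 4 with Adeno-Cre). The Smc3 fl/- clones and the Wapl clones lacked 1 allele before any treatment. Adeno-Cre was given for 4 h and hydroxytamoxifen for 2 to 3 d, and cells then rested for 10 d. The labels call the replicates clones, and p-values measure the spread between these libraries.

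The 27 libraries of the main table held 7.3 M to 36.8 M reads in genes. The summed level of 11 fibroblast markers was 10250 to 18540 RPKM, far above the 16 macrophage markers (29.9 to 5159 RPKM). Ctcf fell from 12.4 ± 1.19 (SD, n = 2) to 4.14 ± 0.129 RPKM (SD, n = 2) after Adeno-Cre in Ctcf floxed cells (log2 change -1.38, limma adjusted p = 1.69e-06). In the Wapl floxed cells Wapl (Wapal in the table) was at 1.64 ± 0.226 untreated and 0.847 ± 0.0951 RPKM treated (n = 2 each, log2 difference -0.52, limma adjusted p = 0.167). Whole-gene Smc3 RPKM was not lower in the libraries labelled as Smc3-deleted (9.53 ± 1.297 untreated, 11.6 ± 1.07 treated, n = 4 each). The labels do not say which exons are removed, so a whole-gene value does not check that deletion.

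The untreated fibroblasts expressed most of all 4 clusters. Over the 14 untreated libraries, 17 of the 39 coding genes had a mean of at least 5 RPKM, 17 lay between 1 and 5 and 5 were below 1. HoxC gave the highest summed level (63.1 to 147 RPKM, median 101.5), followed by HoxB (48.7 to 125, median 73.2), HoxD (29.5 to 90.6, median 48.2) and HoxA (20.3 to 61.7, median 36.1), and these ranges overlap.

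Hoxc6, a gene of thoracic segments and the forelimb level, was the highest of all, from 27.1 to 68.2 RPKM with a median of 45.8. It exceeded the next gene, Hoxd8 (8.75 to 51.2, median 25.9), in all 14 untreated libraries. Hoxc8 followed (15.6 to 33.0, median 20.6), then Hoxb9 (10.8 to 19.4, median 15.99) and Hoxb6 (6.52 to 18.1, median 12.4). Below Hoxc6 the order is loose: in 34 of the 38 pairs of neighbours in the ranking, the means differed by less than 1 SD over the libraries. The exceptions were Hoxc6 over Hoxd8, Hoxc8 over Hoxb9, Hoxb9 over Hoxb6 and, at the bottom, Hoxd1 over Hoxb1.

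By position, the pooled levels were higher in the middle of the clusters, but not in each cluster. Genes with paralogue numbers 5 to 8 had a median of means of 7.15 RPKM (11 genes), against 2.71 for numbers 1 to 4 (12 genes) and 2.84 for numbers 9 to 13 (16 genes). The highest mean lay within numbers 5 to 8 in HoxC (Hoxc6) and HoxD (Hoxd8), but at higher numbers in HoxA (Hoxa10, 9.62 RPKM) and HoxB (Hoxb9, 15.8 RPKM). In HoxB the means of Hoxb2 to Hoxb4 (12.1, 7.91 and 10.1 RPKM) lay within the range of Hoxb5 to Hoxb8 (4.03 to 12.4 RPKM). The lowest genes stood at the ends of clusters. Hoxb1, which acts in the hindbrain, had 0 reads in 22 of 27 libraries and at most 4 reads in any. Hoxd1 had 0 to 23 reads and was listed at 0 in 6 libraries. Hoxb13 ranged from 0 to 1.34 RPKM untreated, and Hoxc12 and Hoxd12 had medians of 0.222 and 0.707. These 3 genes passed the filter in 4, 5 and 5 of the 27 libraries, among them wild-type libraries in each case, and their few reads (0 to 58 for Hoxc12) give little precision.

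**Figure D1:**
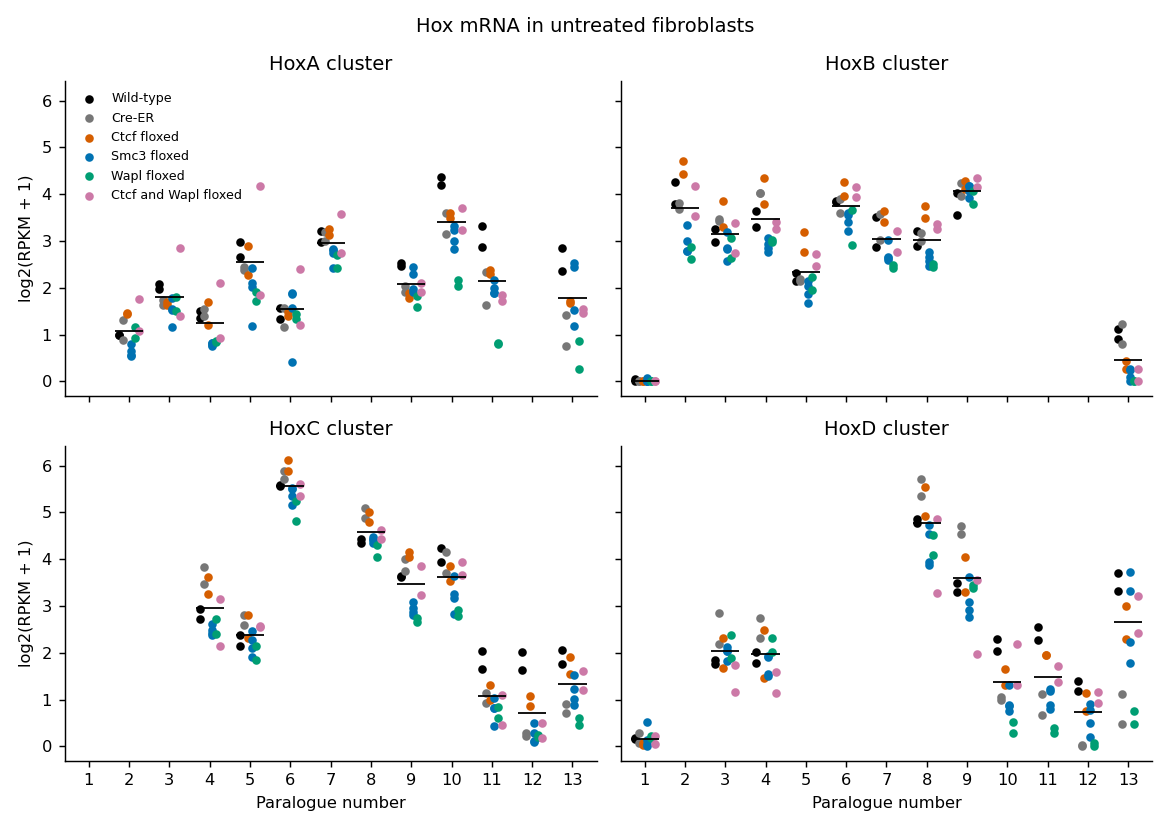
Level of 38 of the 39 coding Hox genes in the 14 untreated libraries, as log2(RPKM + 1) on the vertical axis against paralogue number on the horizontal axis, 1 panel per cluster. Points are libraries, coloured by genotype, and black bars are means over libraries. Hoxc6 stands highest and Hoxb1, Hoxd1, Hoxb13, Hoxc12 and Hoxd12 lowest.

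The untreated genotypes differed in their Hox pattern. A limma F test over the 6 untreated group means called 28 of 38 Hox rows, against 44.8% of all 12604 genes tested. The median SD of log2(RPKM + 1) over untreated libraries was 0.44 for Hox and 0.30 for all genes. Genotype, litter and library preparation cannot be told apart here. The runs of neighbouring genes described next were picked from the ranking of the group means itself. Their counts and F test calls are therefore a description and no separate support.

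The genes at the far end of HoxA, HoxC and HoxD had their highest group mean in wild-type cells, although for Hoxd13 a library of another genotype was higher. The group mean of wild-type cells was the highest of the 6 genotypes for all 11 genes from Hoxa10 to Hoxa13, Hoxc10 to Hoxc13 and Hoxd10 to Hoxd13, and the Wapl floxed cells had the lowest mean for 10 of them. The F test, on the same means, called all 11. Of these, Hoxc12 reached 1 RPKM in 5 libraries only, the wild-type ones and an untreated Ctcf floxed one, so it passed the filter through the group where it is high. Hoxd13, which patterns the digits, was at 12.1 and 8.97 RPKM in untreated wild-type cells, 6.96 and 3.91 in Ctcf floxed, 1.17 and 0.387 in Cre-ER and 0.388 and 0.682 in Wapl floxed cells (F test adjusted p = 0.00188). It was at 4.34 and 8.24 RPKM in Ctcf and Wapl floxed cells and at 2.44 to 12.2 RPKM in the 4 Smc3 floxed libraries, so the Smc3 floxed range overlapped that of wild-type cells, and Smc3 floxed clone 4 was the highest of all untreated libraries. Hoxa11, which shapes the middle limb segment, was at 6.30 and 9.06 RPKM in wild-type and 0.739 and 0.755 in Wapl floxed cells (adjusted p = 1.11e-05). Its antisense partner Hoxa11as was at 10.3 and 9.77 against 0.4661 and 0.593 RPKM in the same cells, and the genes overlap, so reads from either cannot be told apart unless counting used strand, which the labels do not state. Hoxc12 was at 3.02 and 2.12 RPKM in wild-type cells, from 58 and 42 reads, and at 0.191 and 0.144 in Wapl floxed cells, from 2 to 3 reads.

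The summed level of 8 cartilage and bone markers moved with some of these differences: it was 112 to 128 RPKM in untreated wild-type cells, 102 to 174 in Ctcf floxed and 69.8 to 134 in Ctcf and Wapl floxed cells, but 12.03 to 13.52 in Cre-ER, 9.70 to 20.0 in Smc3 floxed and 6.64 to 7.99 in Wapl floxed cells. The macrophage markers were highest in untreated Wapl floxed cells (4025 and 5159 RPKM). In bulk RNA, fewer cells of a type and less RNA per cell cannot be told apart, and the part of either marker set in the Hox differences was not tested.

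Other blocks had other maxima. Hoxb2 to Hoxb8 had their highest group mean in untreated Ctcf floxed cells (7 of 7, of which the F test called all but Hoxb3, adjusted p = 0.0534), for example Hoxb2, a hindbrain patterning gene, at 20.6 and 25.4 RPKM against 5.16 and 6.31 in Wapl floxed cells. Hoxd3, Hoxd4, Hoxd8 and Hoxd9 had their highest mean in Cre-ER and their lowest in Ctcf and Wapl floxed cells (4 of 4), but the F test called only Hoxd8 and Hoxd9 of these (adjusted p = 0.0172 and 0.00373, against 0.0955 for Hoxd3 and 0.102 for Hoxd4). Hoxd8 was at 40.1 and 51.2 RPKM in the former and 27.8 and 8.75 in the latter. Hoxa2 to Hoxa7 had their highest mean in Ctcf and Wapl floxed cells (6 of 6, of which the F test called Hoxa2 and Hoxa4), where the clones disagreed. Clone 4 had Hoxa5, a gene of the cervical and upper thoracic level, at 17.1 RPKM and clone 3 at 2.59, so the clone 4 library alone gave that maximum.

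**Figure D2:**
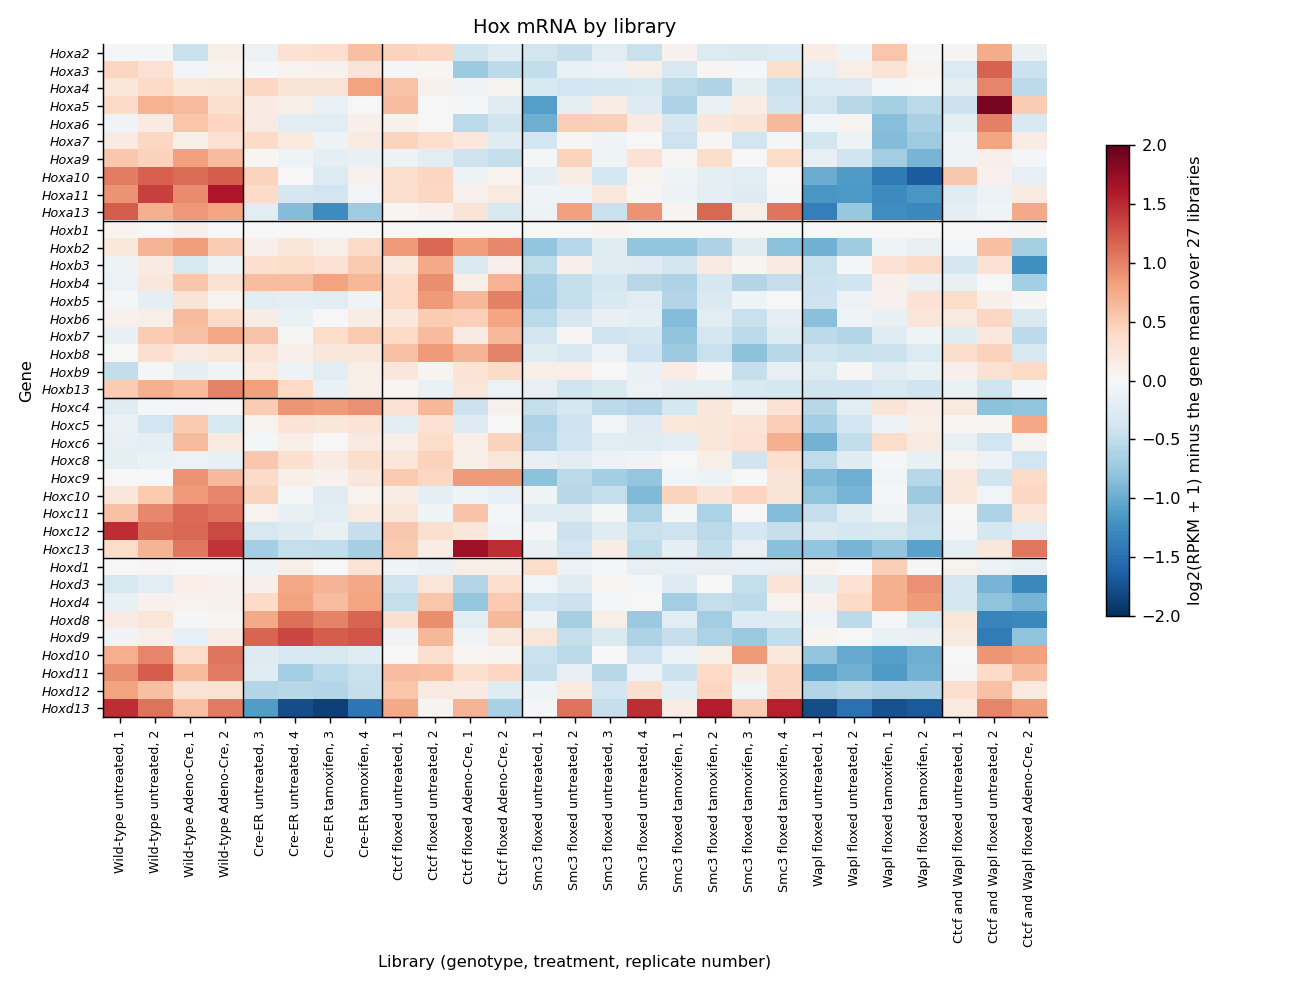
Log2(RPKM + 1) minus the gene's mean over the 27 libraries, for 38 of the 39 coding Hox genes (rows, in cluster and paralogue order) and libraries (columns, by genotype, treatment and replicate number). Red is above and blue below the gene's mean; the far ends of HoxA, HoxC and HoxD are red in wild-type and blue in Wapl floxed libraries, and clone 4 of the Ctcf and Wapl floxed cells is red from Hoxa2 to Hoxa7 when untreated.

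Clones of some genotypes also kept Hox differences through the treatment. Over the Hox rows, the deviations of a clone's untreated and treated library from their group means correlated at 0.79 in Ctcf floxed cells. The correlation was 0.65 to 0.74 in Smc3 floxed, 0.41 in Wapl floxed, 0.16 in wild-type and -0.42 in Cre-ER cells. The F test for clones within a genotype called 19 of 38 Hox rows, or close to the 49.9% of all genes it called. Smc3 floxed clones 2 and 4 had Hoxd13 at 9.03 and 12.2 RPKM and clones 1 and 3 at 3.67 and 2.44. After hydroxytamoxifen they had 13.01 and 12.88 against 4.23 and 5.71. Hoxa13 divided the same clones (4.47 and 4.79 against 1.90 and 1.28 untreated, 5.87 and 5.55 against 2.21 and 2.37 treated), and neither range overlapped (clone F test adjusted p = 0.0109 for Hoxd13 and 0.0332 for Hoxa13). Without the Smc3 libraries the clone test called 10 Hox rows. No share of all genes is given for that smaller fit, so the change from 19 is not read as a result about Hox genes. By the correlation of their Hox levels, 20 of 27 libraries were nearest to a library of their own genotype, and 4 of 26 to their own clone; over all genes tested these counts were 25 of 27 and 6 of 26.

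In the Ctcf comparison (Adeno-Cre against untreated Ctcf floxed cells) 1 Hox gene was called, and it was not called against the Adeno-Cre control. Hoxc13, the last gene of HoxC and a regulator of hair and nail keratins, was at 2.77 and 1.92 RPKM untreated and rose to 7.53 and 6.28 after Adeno-Cre, so the groups did not overlap (log2 change 1.25 ± 0.24 SE, limma adjusted p = 0.00269). That is 1 of 38 rows, against 7.66% of all genes called (5.04% higher, 2.63% lower). Adeno-Cre in wild-type cells, the control for the virus, moved the same gene from 2.40 and 3.20 to 4.49 and 6.13 RPKM (log2 difference 0.73 ± 0.24 SE, limma adjusted p = 0.106). The difference between both responses was 0.52 ± 0.34 SE and was not called (adjusted p = 0.786). Under hydroxytamoxifen, Cre-ER cells had 0.862 and 0.655 RPKM against 0.645 and 0.885 untreated.

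All 12 HoxA rows lay below 0 in the Ctcf comparison, with a median log2 change of -0.40 against 0.05 for all genes, but 0 of the 12 were called by limma and 2 had an unadjusted p under 0.05. Hoxa2, a hindbrain gene and the HoxA row with the largest difference, was at 1.75 and 1.70 RPKM untreated and 0.527 and 0.712 with Adeno-Cre (log2 difference -0.75, adjusted p = 0.059). All 8 HoxD rows tested were likewise below 0 (median -0.24, 0 called, none with an unadjusted p under 0.05). In wild-type cells with Adeno-Cre the medians were -0.07 for HoxA and -0.17 for HoxD, and 0 of the 38 differences between the Ctcf and wild-type responses were called by limma (1 with an unadjusted p under 0.05), against 1.46% of all genes. With the clone as a block, the Ctcf comparison had 1 call up and 7 down, namely Hoxa2, Hoxa3, Hoxa7, Hoxa9, Hoxb3, Hoxc4 and Hoxd12 down, against 25.0% of all genes called in that fit (15.7% higher, 9.35% lower). Hoxa9 was then the 1 call in the difference from wild-type cells (log2 difference -0.51, adjusted p = 0.042), against 6.95% of all genes.

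Cell type markers moved in the Ctcf comparison as well. All 7 adipocyte markers (median log2 difference -0.57, summed level 225 to 241 RPKM untreated and 117 to 147 treated) and all 4 cartilage and bone markers tested (median -0.71) lay below 0, and 0 of the 16 macrophage markers lay above 0 (median -0.37), with 0 calls by limma in these lists (1, 0 and 0 with an unadjusted p under 0.05). The epithelial markers Cldn3 (0.286 to 24.6 RPKM) and Cldn4 (0.0779 to 1.04), the neural marker Tubb3 (19.1 to 152) and the muscle marker Acta1 (14.3 to 49.5) rose. Their lists did not rise as a whole. Above 0 lay 3 of 6 epithelial (median 0), 2 of 6 neural (median -0.09) and 2 of 5 muscle markers tested (median -0.11). With Adeno-Cre in wild-type cells Tubb3 rose too (39.9 to 127 RPKM), and the medians were -0.32 for adipocyte, -0.72 for cartilage and bone and -0.55 for macrophage markers. The part of these markers in the Hox values was not tested.

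In the libraries labelled as Smc3-deleted, 4 of the 9 HoxC genes rose: the neighbours Hoxc5 and Hoxc6, and the neighbours Hoxc9 and Hoxc10. In all, 5 of 38 Hox rows were called, against 15.0% of all genes (9.37% higher, 5.60% lower), so the count over all clusters is near the background. The median log2 change was 0.53 for HoxC and 0.07 for all genes. Hoxc10, a gene of lumbar and hindlimb level, was at 11.4, 7.96, 8.51 and 6.14 RPKM untreated and 16.9, 14.7, 16.6 and 14.7 treated (clones 1 to 4, log2 change 0.84 ± 0.17 SE, limma adjusted p = 0.00215). Hoxc9, a neighbour that acts at thoracic level, was at 6.06, 7.55, 6.75 and 6.29 and then 10.9, 10.6, 11.3 and 13.9 RPKM (0.72 ± 0.13 SE, adjusted p = 0.00115). Every treated library was above every untreated one for both genes.

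Hoxc5 rose from 3.62 ± 0.748 to 6.14 ± 0.689 RPKM (SD, n = 4; log2 change 0.64, adjusted p = 0.0121), again with no overlap. Hoxc6 rose from 35.0, 39.7, 45.3 and 44.3 to 45.0, 62.0, 65.8 and 87.3 RPKM (0.62, adjusted p = 0.0147), and the treated clone 1 lay within the untreated range. The Hoxc6 call was lost without untreated replicate 1 (adjusted p = 0.0504) or treated replicate 4 (0.0655). Hoxb8, a thoracic-level HoxB gene, fell from 5.27, 4.95, 5.84 and 4.56 to 3.50, 4.48, 3.21 and 4.07 RPKM (-0.36, adjusted p = 0.0342), but lost the call in 6 of the 8 fits that leave out 1 library. By limma, 0 of 12 HoxA rows (0 with an unadjusted p under 0.05) and 0 of 8 HoxD rows (2 with an unadjusted p under 0.05) were called.

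Cre-ER cells with hydroxytamoxifen had 0 Hox calls by limma (1 of 38 with an unadjusted p under 0.05, Hoxb13, and 0% of all genes called), and their log2 differences were -0.30 for Hoxc10 and 0.04 for Hoxc6. The difference between the Smc3 and Cre-ER responses was called by limma for 0 Hox genes (3 with an unadjusted p under 0.05), against 1.23% of all genes. For Hoxc10 it was 1.14 ± 0.29 SE (adjusted p = 0.063, and 0.0168 with the clone as a block), and for Hoxc9 0.81 ± 0.23 SE (adjusted p = 0.104, block 0.0226); the block called these 2 genes, against 10.7% of all genes. Macrophage markers summed to 62.5 to 2038 RPKM untreated and 29.9 to 410 RPKM treated in these cells, with all 16 of them below 0 in log2 difference and 0 called by limma (1 with an unadjusted p under 0.05). Of 7 adipocyte markers 4 fell (Fabp4, Pparg, Cebpa and Plin1) and of 5 muscle markers tested 3 rose (Tnnt2, Tnnc1 and Myh8). Of 6 neural markers Ncam1, Sox10 and Foxd3 fell and Tubb3 rose, and of 5 endothelial markers Flt1 (11.3 to 1.55 RPKM) and Egfl7 (1.66 to 0.772) fell. The part of these cell type markers in the HoxC values was not tested. With the block, 9 Hox rows were called up and 1 down, against 36.6% of all genes (24.0% higher, 12.6% lower), and Hoxc4, Hoxd10, Hoxd11, Hoxb3 and Hoxb5 were the added ones.

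In the libraries labelled as Wapl-deleted, 1 Hox gene was called, Hoxc6. It was at 27.1 and 37.2 RPKM untreated and 68.5 and 60.4 with hydroxytamoxifen, with no overlap (log2 change 1.00 ± 0.23 SE, limma adjusted p = 0.0266; 1 of 38 rows against 2.43% of all genes, 1.50% higher and 0.928% lower). The call was lost on leaving out any 1 of the 4 Wapl libraries (adjusted p = 0.0542 to 0.377), and its difference from the Cre-ER response was 0.96 ± 0.33 SE (adjusted p = 0.42). By limma 0 of the 38 rows were called in that difference (4 with an unadjusted p under 0.05), against 0.143% of all genes.

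The signs of the Wapl values differed along the clusters, and so did those of the hydroxytamoxifen control. All 10 rows with paralogue numbers 1 to 4 were above 0 (median 0.52, against -0.01 for all genes), 8 of 11 with numbers 5 to 8, and 4 of 17 with numbers 9 to 13 (median -0.06). In Cre-ER cells with hydroxytamoxifen 9 of 10 rows with numbers 1 to 4 (median 0.14) and 2 of 17 with numbers 9 to 13 (median -0.09) were above 0. In the Wapl response minus the Cre-ER response these counts were 9 of 10 (median 0.43) and 10 of 17 (median 0.03), and no test was made of the difference between positions. Of the 10 rows with numbers 1 to 4, 0 were called in the Wapl comparison by limma and 4 had an unadjusted p under 0.05. Hoxb2 was at 5.16 and 6.31 RPKM untreated and 10.3 and 9.82 treated (0.72, adjusted p = 0.127), Hoxd3, which acts in the upper neck, at 2.71 and 4.19 against 5.97 and 6.97 (0.76, adjusted p = 0.225). On the other side, Hoxa9 was at 2.57 and 2.02 untreated and 1.49 and 1.10 treated (-0.52, adjusted p = 0.15). With the clone as a block 10 rows were called up (Hoxb2, Hoxb3, Hoxb5, Hoxb6, Hoxc4, Hoxc5, Hoxc6, Hoxc9, Hoxd3 and Hoxd4) and Hoxa7 and Hoxa9 down, against 14.6% of all genes (7.62% higher, 6.97% lower). In the difference from the Cre-ER response the block called 0 (2.48% of all genes). Macrophage markers moved with this comparison, from 4025 and 5159 to 1045 and 3192 RPKM, as did the adipocyte markers (480 and 498 to 90.4 and 256 RPKM, 1 of 7 called, Pparg, which fell), and their part in it was not tested.

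**Figure D3:**
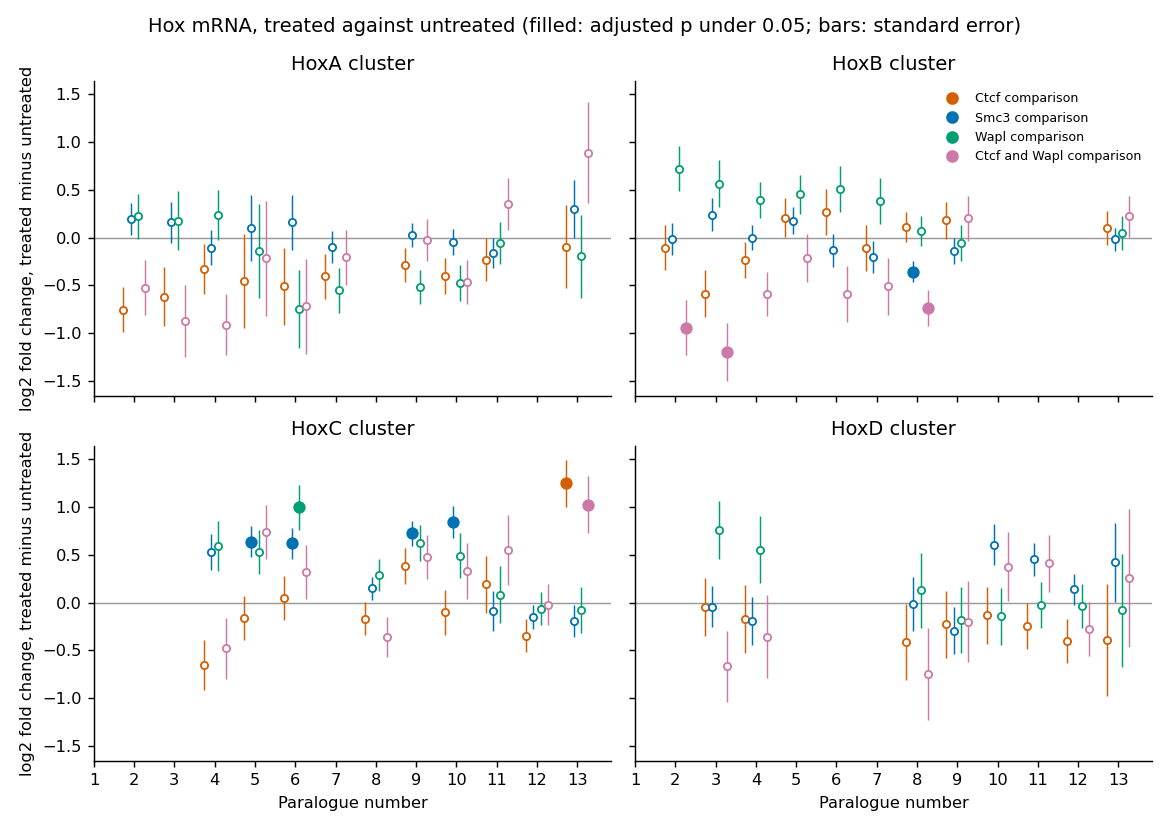
Log2 fold change (treated minus untreated, on log2(RPKM + 1)) of 36 of the 37 coding Hox genes tested, against paralogue number, by cluster and deletion. Points are the fitted values, bars their standard errors, and filled points have an adjusted p under 0.05; Hoxb2 and Hoxb3 lie lowest in the Ctcf and Wapl comparison, while HoxC numbers 5, 6, 9 and 10 lie above 0 with the Smc3 treatment. The deletions are named as in the labels, and whole-gene values do not check that of Smc3.

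In the comparison of both Ctcf and Wapl, 3 HoxB genes were lower by the test in the single treated library, of which Hoxb2 and Hoxb3 depended on 1 untreated library and none was called against the Adeno-Cre control. Hoxb3, which acts in the hindbrain and neck, was at 5.71 (clone 3) and 9.43 RPKM (clone 4) untreated and 2.64 in the 1 treated library, from clone 4 (log2 change -1.20 ± 0.30 SE, limma adjusted p = 0.0113). Hoxb2 went from 10.7 and 17.0 to 6.54 RPKM (-0.94 ± 0.29 SE, adjusted p = 0.0329) and Hoxb8 from 8.55 and 9.24 to 4.94 RPKM (-0.74 ± 0.19 SE, adjusted p = 0.0134). Hoxc13 rose from 1.32 and 2.08 to 4.44 RPKM (1.03 ± 0.30 SE, adjusted p = 0.0249). These are 4 of 38 rows, against 15.8% of all genes (10.5% higher, 5.34% lower), and the lower ones were all in HoxB (median -0.59 over 9 rows, against 0.17 for all genes). The fibroblast markers moved as well: 3 of 11 fell (Pdgfra, Pdgfrb and Col1a2, median -1.13 over the list), with a summed level of 10800 to 15070 RPKM untreated and 10400 treated. Cldn3, Cldn4, Tubb3 and Acta1 rose, Flt1 fell and Egfl7 rose, and 15 of 16 macrophage markers lay above 0 (median 0.89, 0 called by limma and 0 with an unadjusted p under 0.05). Over the whole lists, 3 of 6 epithelial (median 0.35) and 5 of 6 neural markers tested (median 0.57) lay above 0. Of the muscle markers 2 of 5 lay above 0 (median -0.1), and of the endothelial ones 2 of 5 (median -0.24). With the clone as a block, Flt1 and Egfl7 were not called. The part of these markers in the Hox values was not tested. A single treated library entered, and it is assumed to vary like the other groups.

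The all-gene median of this comparison was 0.17, over 0.1, and became 0.00 when libraries were rescaled by median of ratios; the Hox median then moved from -0.21 to -0.40. Hoxc13 lost its call under that rescaling (adjusted p = 0.0666), and Hoxb2 (0.154) and Hoxb3 (0.0596) lost theirs without untreated clone 4. By limma 0 Hox rows were called in the difference from Adeno-Cre in wild-type cells (7 with an unadjusted p under 0.05), against 3.87% of all genes. The nearest were Hoxb4, Hoxb8 and Hoxb2 with adjusted p of 0.0778, 0.0892 and 0.0897. With the clone as a block, which sets clone 4 against itself, 11 rows were called down and 3 up (Hoxc5, Hoxc9 and Hoxc13), against 22.8% of all genes (14.7% higher, 8.17% lower), and 9 rows in the difference from wild-type cells, against 12.0%. The downward ones were Hoxa2 to Hoxa7, Hoxb2, Hoxb3, Hoxb4, Hoxb6 and Hoxb8, and untreated clone 4 was the library with the highest Hoxa2 to Hoxa7 of all 14 untreated libraries.

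A further pair of libraries carries the labels of Adeno-Cre-treated clone 3 of these cells. They were deposited in a table of their own, normalized apart and named for serum stimulation, and the labels do not tell the libraries from each other, so their values are set beside clone 3 untreated without a test. Hoxb3 was at 5.71 RPKM untreated and at 2.47 and 2.65 in these libraries, and Hoxb8 at 8.55 against 5.44 and 4.01. Both genes were lower in both libraries. They were picked for their calls in the double comparison, which used the same untreated clone 3 library, so this is no separate support. Other Hox rows were lower in both libraries too, among them Hoxa10 (11.99 against 6.26 and 3.31 RPKM) and Hoxb4 (8.59 against 6.72 and 4.14). In the first library 18 of 33 Hox rows lay below untreated clone 3, and 5151 of 11284 genes did. For some genes the libraries disagreed: Hoxb2 was at 10.7 RPKM untreated and at 8.86 and 13.7, Hoxc13 at 1.32 and at 3.36 and 1.21, and Hoxa3 at 1.64 and at 0.570 and 1.73. Between the libraries, the second had 9 of 31 Hox rows lower by more than 2-fold against 16.9% of all genes, with Hoxc6 at 79.5 and 18.8 and Hoxc9 at 30.6 and 7.38 RPKM. The second library lay below the first for 26 of 31 Hox rows and for 6454 of 10715 genes.

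**Figure D4:**
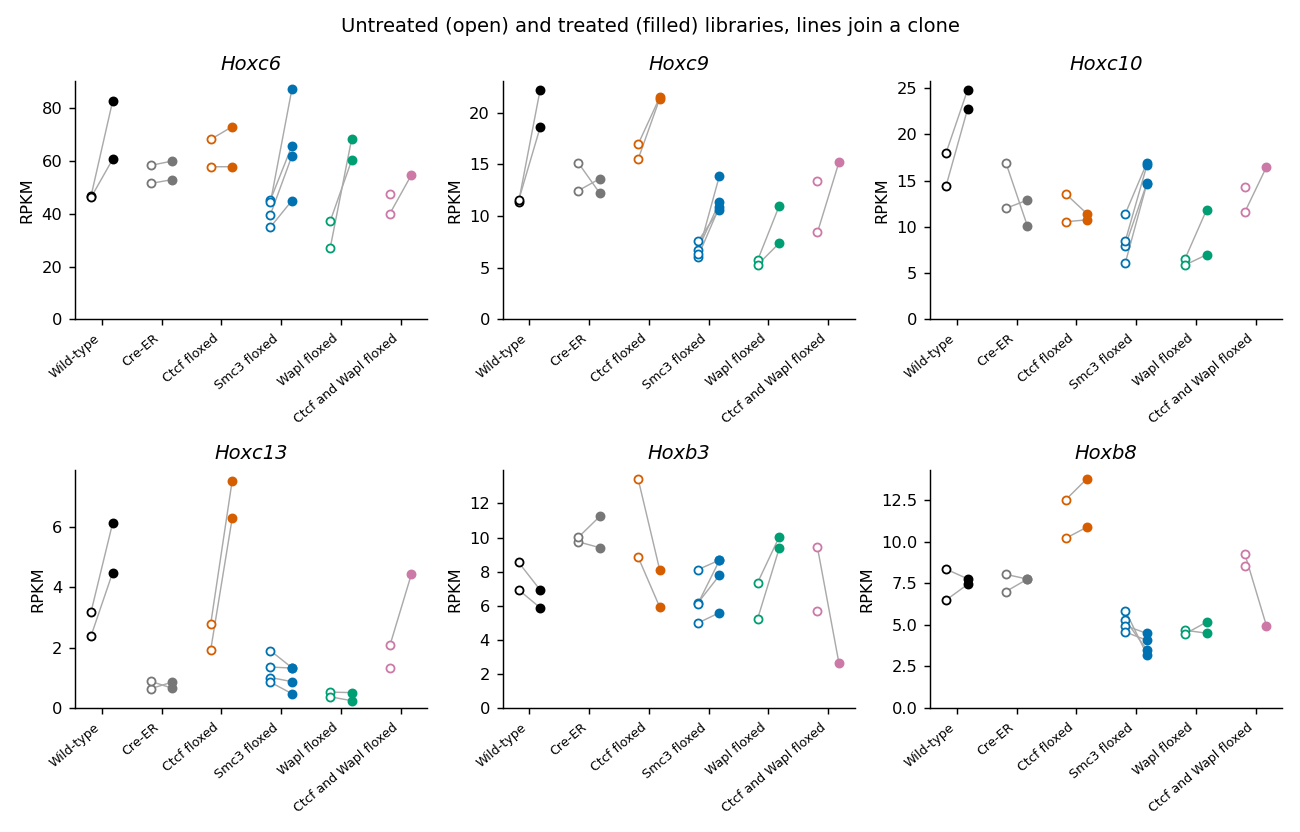
RPKM of 6 Hox genes by library and genotype, linear axes from 0. Open points are untreated, filled points treated libraries and grey lines join libraries of a clone; Hoxc9 and Hoxc10 are higher in every treated than in every untreated Smc3 floxed library, and Hoxc13 is higher with Adeno-Cre in wild-type, Ctcf floxed and Ctcf and Wapl floxed cells.

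Adeno-Cre in wild-type cells called 1 Hox gene, Hoxc9, which rose from 11.3 and 11.5 to 22.2 and 18.6 RPKM (log2 change 0.78 ± 0.19 SE, limma adjusted p = 0.0315; 1 of 38 rows against 3.24% of all genes, 2.70% higher and 0.540% lower). The call was lost without either untreated library or without treated replicate 1 (adjusted p = 0.162 to 0.344) and under rescaling (0.0904). The clone block called 5 rows: Hoxb5, Hoxc6, Hoxc9 and Hoxc13 up and Hoxd12 down, against 23.0% of all genes (15.8% higher, 7.24% lower).

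Nascent RNA was measured by global run-on sequencing (GRO-seq), in which polymerases caught on genes extend their transcripts in isolated nuclei. The Ctcf(fl/fl) Wapl(fl/fl) cells had 1 deposited TPM value for 2 pooled untreated libraries and 1 for 2 pooled Adeno-Cre libraries, from clones 1 and 2, so these clones are not those of the RNA-seq. No replicate check exists for these values, and their depth is unknown.

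Nascent RNA was lower in the Adeno-Cre pool than in the untreated pool at the low-numbered end of HoxA and HoxB. It was lower by more than 2-fold on log2(TPM + 1) for Hoxa2 (13.3 to 1.11 TPM), Hoxa3 (23.3 to 6.58), Hoxa5 (34.1 to 11.3), Hoxa6 (16.3 to 4.55), Hoxb3 (20.8 to 5.11), Hoxb4 (26.9 to 12.4), Hoxb5 (25.4 to 8.27), Hoxb6 (21.0 to 7.88), Hoxc4 (9.12 to 3.84) and Hoxd13 (13.63 to 6.15). These are 10 of 36 rows with a mean of at least 1 TPM. Of all genes 22.0% were lower by that much, so the share is near the background, and 0 Hox rows were higher by that much (4.40% of all genes). The background itself is shifted, with an all-gene median of -0.56, and after rescaling by median of ratios 2 Hox rows (Hoxa2 and Hoxb3) were past 2-fold lower, against 3.59% of all genes, and 5 were past 2-fold higher, against 12.6%.

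The values differed along the clusters. Hoxa2 to Hoxa6 had a median log2 difference of -1.64 (5 of 5 below 0) and the 6 rows from Hoxa7 to Hoxa13 one of 0.07. Hoxb2 to Hoxb6 had -1.31 (5 of 5 below 0) and Hoxb7 to Hoxb9 -0.14. These blocks were picked from the same values, so their counts are a description. Of all 14680 genes 11390 lay below 0 (median -0.56), and Hoxa4 (-0.48) lay above that median. After rescaling Hoxa4 was at 0.20 and Hoxb2 at -0.07, and the other genes of Hoxa2 to Hoxa6 and Hoxb2 to Hoxb6 stayed below 0 (-2.05 to -0.33). Hoxa7, which lies next to Hoxa6, went from 7.54 to 12.6 TPM. HoxC had a median of 0.11 over 8 rows, with Hoxc6 at 31.4 and 43.6 TPM and Hoxc13 at 3.04 and 4.74. Gene spans overlap inside the clusters (in RefSeq, Hoxa3 spans Hoxa4 to Hoxa6, and Hoxb3 spans Hoxb4), so their values can share reads and are not independent of each other.

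The upstream sequence of 4 genes is shown. Hoxa2 had the largest difference in nascent RNA of the Hox rows, and Hoxa6 and Hoxa7 lie on either side of the step in HoxA. Hoxb8 mRNA was called lower in the double comparison and with the Smc3 treatment, where most fits that leave out 1 library lost the call. Its nascent RNA was not lower (8.46 TPM untreated, 10.3 with Adeno-Cre). The sequences are the 250 bases before the transcription start, 5′ to 3′ on the gene's strand, from RefSeq on GRCm38.p6 (the deposited values use mm9). Capitals mark TGATNNAT, a pattern bound by Hox proteins with their Pbx partners.
Hoxa2 (chr6:52164832-52165081, minus strand): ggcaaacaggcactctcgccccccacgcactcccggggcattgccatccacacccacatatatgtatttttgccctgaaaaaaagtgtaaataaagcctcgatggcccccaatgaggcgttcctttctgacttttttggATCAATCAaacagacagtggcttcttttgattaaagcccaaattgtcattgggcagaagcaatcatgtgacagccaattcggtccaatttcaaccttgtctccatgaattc
Hoxa6 (chr6:52208673-52208922, minus strand): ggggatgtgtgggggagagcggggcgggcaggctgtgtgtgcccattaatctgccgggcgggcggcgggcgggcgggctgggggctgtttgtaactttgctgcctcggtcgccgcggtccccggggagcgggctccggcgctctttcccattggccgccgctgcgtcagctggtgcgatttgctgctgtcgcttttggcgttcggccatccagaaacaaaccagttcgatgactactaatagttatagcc
Hoxa7 (chr6:52218574-52218823, minus strand): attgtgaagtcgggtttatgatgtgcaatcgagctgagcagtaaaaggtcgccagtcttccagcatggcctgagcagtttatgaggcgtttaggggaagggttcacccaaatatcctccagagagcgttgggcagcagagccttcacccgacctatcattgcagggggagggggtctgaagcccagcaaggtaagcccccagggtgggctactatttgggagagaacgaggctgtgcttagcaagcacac
Hoxb8 (chr11:96281655-96281904, plus strand): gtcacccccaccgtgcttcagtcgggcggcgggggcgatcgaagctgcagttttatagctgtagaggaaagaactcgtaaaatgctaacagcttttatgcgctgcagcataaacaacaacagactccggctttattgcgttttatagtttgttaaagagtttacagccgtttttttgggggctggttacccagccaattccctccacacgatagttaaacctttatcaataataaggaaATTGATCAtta

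RefSeq promoters were held for 22 of the 39 coding genes, in 24 windows. TGATNNAT, searched on both strands, was in 4 of these 24 windows (16.7%) and in 7.68% of 32851 promoter windows of the same length. A short CTCF-like core, searched on both strands as AGGGGGC with AGGTGGC as another form, AGAGGGC as a further form and AGATGGC as the last one, was in 3 of 24 (12.5%) against 23.6%, and in none of the 4 windows shown. The Hox windows had a median GC content of 58.6% against 52.4% and 12.5 CpG dinucleotides against 6.0. A match describes letters and not binding.

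**Figure D5:**
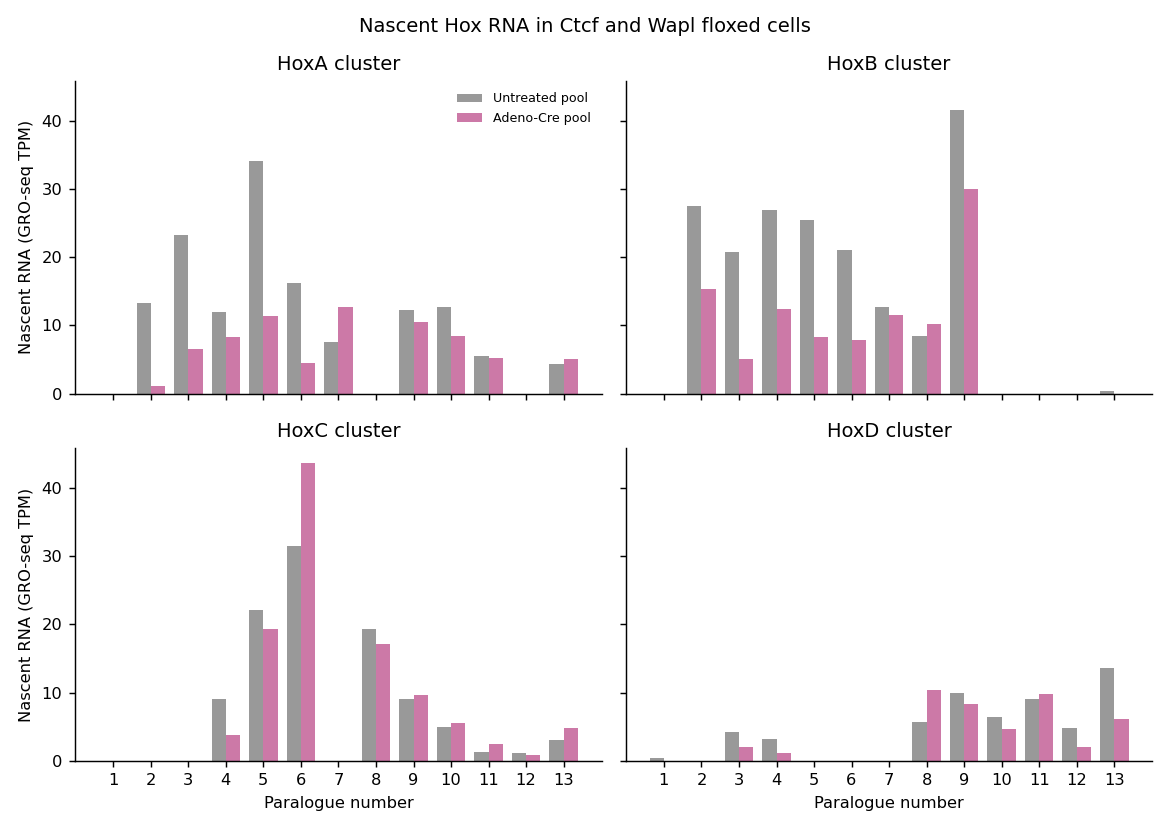
Nascent RNA (GRO-seq TPM, linear axis from 0) of 38 of the 39 coding Hox genes in Ctcf and Wapl floxed cells, against paralogue number, by cluster. Grey bars are the untreated pool and pink bars the Adeno-Cre pool, with 1 value each and no replicates; the pink bars are lower from Hoxa2 to Hoxa6 and from Hoxb2 to Hoxb6, and higher for Hoxa7 and Hoxc6.

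Further GRO-seq columns followed Adeno-Cre cells given DRB, an inhibitor of transcription elongation, for 3.5 h, with or without 1 d of recovery (1 library each, brought to the same total). The labels give no clone for these libraries, while the Adeno-Cre column without DRB pooled clones 1 and 2. Differences between clones and those from DRB or recovery cannot be told apart here. Under DRB 5 of 34 Hox rows were lower and 3 higher by more than 2-fold, against 27.8% and 12.5% of all genes. Hoxc13 went from 4.74 to 21.8 TPM and back to 5.90 after recovery, Hoxd8 from 10.4 to 0.793 and 5.10, and Hoxa6 from 4.55 to a listed 0 and 0.608. Against cells without DRB, 4 of 36 rows were lower by more than 2-fold after recovery (6.18% of all genes) and all 4 were in HoxA: Hoxa3 (2.19 TPM), Hoxa4 (0.852), Hoxa5 (3.03) and Hoxa6 (0.608). Hoxa3 spans Hoxa4 to Hoxa6, so these 4 rows can share reads. From DRB to recovery, 1 of 35 Hox rows was lower and 3 were higher by more than 2-fold, against 6.19% and 23.3% of all genes. Against cells without DRB, Hoxc4 was the 1 row higher by more than 2-fold, at 9.50 against 3.84 TPM (4.95% of all genes).

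In the deposited wild-type table, which gives 1 pooled TPM value beside the mean RPKM of the 4 untreated wild-type and Cre-ER libraries, Hox genes differed in the balance of nascent and mature RNA. GRO-seq was made of wild-type cells, untreated and with Adeno-Cre, and of Cre-ER cells, untreated and with hydroxytamoxifen (1 library each). The column name does not say which of these were pooled, so the TPM value may include treated cells. Hoxc6 was high in both (39.4 TPM, 50.8 RPKM). Hoxd8 was at 10.97 TPM and 36.4 RPKM and Hoxc10 at 4.72 and 15.3, while Hoxa9 was at 21.1 TPM and 3.80 RPKM and Hoxc5 at 21.5 and 4.68. Over the 12917 genes at 1 or more in either unit, the median log2 difference of nascent minus mature RNA was -0.64. Both units are per length, but they come from separate tables, so each is read as a level within its own assay.

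Genes that act with Hox proteins or on the clusters were called at shares from below to above the background. Of 11 tested cofactors of the TALE class, which bind DNA with Hox proteins, 4 were called with the Smc3 treatment (36.4%, against 15.0% of all genes): Meis1 (10.3 to 19.2 RPKM) and Meis2 (7.84 to 11.9) rose and Pknox2 (5.79 to 3.15) and Pbx3 (11.6 to 6.80) fell (limma adjusted p = 0.00222, 0.0492, 0.00454 and 0.00123). In the difference from the Cre-ER response 0 of the 11 were called by limma (4 with an unadjusted p under 0.05). Pknox2 also fell in the Ctcf, Wapl and double comparisons (adjusted p = 0.0198, 0.0493 and 0.0414), as the 1 call of 11 in each, against 7.66%, 2.43% and 15.8% of all genes.

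Of 30 Polycomb genes, which keep silent Hox genes repressed, Ezh2, Phc2 and Scmh1 rose in the double comparison (3 of 30, against 15.8% of all genes), Eed in the Ctcf comparison (1 of 30, against 7.66%) and Pcgf3 with the Smc3 treatment (1 of 30, against 15.0%), and none was called lower in these or in the Wapl comparison. Of 15 Trithorax and demethylase genes, which oppose Polycomb, Ash2l rose in the double comparison (1 of 15, against 15.8%). These counts are below the background or near it.

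Of the genes flanking the clusters, Jazf1 and Hibadh (2 of 8 on the HoxA side), Nfe2l1 (1 of 9, HoxB), Cbx5 (1 of 8, HoxC) and Chn1 (HoxD) rose and Gpr155 and Wipf1 (HoxD) fell with the Smc3 treatment, which makes 3 of 10 for HoxD, against 15.0% of all genes. Copz2 (1 of 9, HoxB) and Wipf1 (1 of 10, HoxD) fell in the double comparison, against 15.8%, and Cdk5rap3 (1 of 9, HoxB) fell in the Wapl comparison, against 2.43%. Snf8 (1 of 9, HoxB) rose with Adeno-Cre in wild-type cells, against 3.24%.

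Among 29 other body position genes, Hand2 fell and Pax3 rose in the Ctcf comparison (3 of 29 called, against 7.66%), Barx1 rose and Gata6 fell in the double comparison (3 of 29, against 15.8%), and Alx4 rose and Tbx18 fell with the Smc3 treatment (2 of 29, against 15.0%). The clone F test called 25 of the 29, against 49.9% of all genes, and the F test between untreated genotypes 14 of them, against 44.8%, which is near the background.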

How the data were processed

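RNA-seq of 29 libraries and GRO-seq of 10 were used; the 64 ChIP samples of the series are not analysed here. RNA-seq values are RPKM as deposited, from alignments to mm9; TopHat 1.3.1 and 1.4.1, Bowtie 0.12.5, HTSeq, bedtools and MACS 1.4.2 are named per the submitters' processing notes, and the strand setting of counting is not given there. GRO-seq values are TPM as deposited by the authors, with 2 libraries pooled in a column for the untreated and Adeno-Cre cells; their depth is unknown, and the DRB columns were multiplied by 2 to reach the same total. Reads were recovered from the steps of low RPKM values (99.92% of genes within 0.02 reads), giving 7.3 M to 36.8 M reads in genes. The recovered reads served to state depth and the read counts of low genes, and did not enter the tests. Groups came from the labels.

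Log2(RPKM + 1) of the 27 libraries of the main table was fitted with limma 3.58.1 in R 4.3.3, with 1 mean for each of 12 groups, for the 12604 genes with at least 1 RPKM in at least 2 libraries. Empirical Bayes used trend and robust settings, Benjamini-Hochberg adjustment ran over all these genes, and the threshold was 0.05. Fold changes are on the log2(RPKM + 1) scale, which understates those of low genes. The script was tested on simulated data. GRO-seq differences use log2(TPM + 1) over genes with a mean of at least 1 TPM and no test. Alternatives were another pseudocount (0.1), other filters (none, or at least 4 libraries), rescaling, no trend, each library left out, and the clone as a block.

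Per the labels, a replicate number marks 1 clone in both states. Over all genes tested, the deviations of such library pairs from their group means correlated at 0.76 in wild-type, 0.68 in Ctcf, 0.49 to 0.70 in Smc3 and 0.47 in Wapl floxed cells, but at -0.20 in Cre-ER cells. Over the Hox rows alone the values were 0.16 in wild-type and -0.42 in Cre-ER cells, so the pairing is weak or absent for Hox in both controls. Named genes are Hox rows with a call in a comparison or at least 5 RPKM in a group, and at most 4 called genes per other list; further Hox rows were named to account for each cluster end. Members and lists were chosen with earlier results of these data known. The individual values of some genes are not reported here.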

Additional observations from a re-analysis of the deposited data

Results flagged for a closer look

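In 4 of 76 sets of 4 Smc3 floxed libraries, 1 library stood apart from the other 3 by Dixon's criterion, which chance gives in about 1 of 20. Hoxa2 was at 1.15 RPKM in treated replicate 1 and 0.653 to 0.690 in the others. Hoxb1 was at 0.04595 RPKM in untreated replicate 3 and 0 in the others, from at most 2 reads. Hoxb7 was at 7.155 RPKM in untreated replicate 2 and 5.08 to 5.28 in the others. Hoxd8 was at 14.08 RPKM in treated replicate 2 and 19.4 to 20.0 in the others. None of these 4 genes was called after the Smc3 treatment.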

How the results depend on the processing

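Of 132 gene values under alternatives, all kept their direction, 111 also kept their side of the threshold and 21 lost the call; of 143 counts of called Hox rows, 119 stayed within 1.5 times. The clone as a replicate block raised the counts to 8 for Ctcf, 10 for Smc3, 12 for Wapl, 14 for double deletion and 5 for Adeno-Cre in wild-type cells, and to 1, 2 and 9 for the differences from control of Ctcf, Smc3 and double deletion. With the Cre-ER clone numbers crossed, a choice made after seeing the data, the block called 3 rows in the Smc3 difference. Rescaling by median of ratios gave 2 calls for Ctcf, 0 for wild-type cells, 3 for the difference of double deletion and 2 lower nascent values. Leaving out 1 library gave 0 to 1 calls for wild-type cells, 3 to 7 for Smc3, 0 to 1 for Wapl, 0 to 1 for the Smc3 difference and 0 to 2 for the difference of double deletion. Without the Smc3 libraries 10 rows were called between clones. For the crossed clone numbers, the rescaled RNA-seq fits and the fits that leave out libraries, no share of all genes is given. Those counts are therefore not read as results about Hox genes. The Hoxc13 call after double deletion was lost with a pseudocount of 0.1 (adjusted p = 0.0878). Where a count moved, the cause was not tested, except that leaving out libraries leaves fewer of them. Groups of 2 and a single treated library limit the precision, as do low read counts for Hoxb1, Hoxb13, Hoxc12, Hoxd1 and Hoxd12.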
